A study of Mus musculus with 8 samples.

Results

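Translation initiation factors are the proteins that bring the initiator transfer RNA and a messenger RNA to the small ribosomal subunit, find the start codon and let the large subunit join. Their genes were taken by name from the 8 deposited gene tables of a mouse fetal hypothalamus study, as protein-coding rows whose symbol starts with Eif1 to Eif6, without the sex-linked gene pair for the eIF2 gamma subunit. The rule found 53 genes among 51826, and 49 of them had enough exon reads to be tested. All 53 identifiers were present in GENCODE M21. The rule by name used no measured value, though earlier results of these data were known when it was chosen.

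The cells were red fluorescent cells sorted from C57BL/6 hypothalamus at embryonic day 14.5. Ptf1a-cre Homo libraries (9 to 12) came from Ptf1a cre/cre; Ai9/+ fetuses and Ptf1a-cre Het libraries (1 to 4) from Ptf1a cre/+; Ai9/+ fetuses, with 4 libraries in each genotype. In both genotypes Cre recombinase was made from the Ptf1a locus and switched on the Ai9 fluorescent reporter, so both carry Cre and the reporter. They differ in the number of intact copies of Ptf1a, a transcription factor of inhibitory neuron lineages, and also in the number of copies of Cre. Effects of these differences cannot be told apart. The comparison asks how the RNA of these cells differs when no intact copy of Ptf1a is left. Separate embryos per library are not stated in the labels, so p-values measure the spread between these libraries. Ptf1a itself had 0 exon reads in Homo libraries and 1 in Het libraries, so the genotype labels could not be checked on it.

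Homo libraries held 2571054 to 3009181 exon reads and Het libraries 2502387 to 2979647. Genes with an exon read numbered 17658 to 24852 in Homo libraries and 14617 to 22886 in Het libraries. They were fewest in Het 1 (14617) and Het 2 (17402). The initiation factor genes took 0.866% to 0.946% of exon reads in Homo libraries and 0.846% to 0.942% in Het libraries. Fixed marker lists of the hypothalamus summed to 1070 to 1457 CPM (counts scaled to 1e+06 reads per library) in Homo libraries and 974 to 1223 CPM in Het libraries, and neuron markers to 6345 to 7404 CPM in Homo libraries and 5855 to 6131 CPM in Het libraries. Myeloid markers stayed at or below 22.8 CPM in Homo libraries and 14.5 CPM in Het libraries, while endothelial markers ranged from 9.47 to 188 CPM in Homo libraries and from 5.35 to 141 CPM in Het libraries. Mesenchyme and pericyte markers reached 215 CPM in Homo libraries and 29.7 CPM in Het libraries. Erythroid markers lay between 3.51 and 91.9 CPM in Homo libraries and 4.11 and 107 CPM in Het libraries, neural progenitor markers between 670 and 976 CPM in Homo libraries and 550.0 and 800 CPM in Het libraries. Telencephalon markers lay between 4.21 and 114 CPM in Homo libraries and 106 and 149 CPM in Het libraries. No listed marker was at 0 in all libraries. In edgeR, 4 of 11 tested hypothalamus markers were called lower in Homo (Nkx2-1, Hmx2, Hmx3 and Sox3) and Isl1 higher, with a median log2 fold change of −0.26. Of 7 neuron markers 4 were called higher (Elavl3, Elavl4, Snap25 and Map2) and Tubb3 lower, with a median of 0.49. Over all tested genes 6.96% were called higher and 6.12% lower. After the correction for GC content described below, Isl1 and Elavl3 kept their calls and Six3 was also called higher. The other markers named here as called lost their calls. The part of these marker differences in the results was not tested.

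Initiation runs through a fixed order of complexes. eIF2 with bound GTP carries the initiator transfer RNA to the small subunit, where eIF1, eIF1A and the large scaffold eIF3 keep the complex open for scanning. eIF4E binds the cap of the messenger RNA, eIF4G bridges it to eIF3, and the helicase eIF4A, helped by eIF4B or eIF4H, unwinds the leader. At the start codon eIF5 triggers GTP hydrolysis on eIF2 and eIF5B joins the large subunit. eIF2B recharges eIF2 with GTP, and the eIF2 kinases block that step under stress.

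Several of these genes have close copies in the mouse genome, and the deposited tables count exon reads in 2 ways, as total reads and as reads assigned uniquely to a gene. Reads were 36 bases long. The stretch that encodes the Asp-Glu-Ala-Asp helicase motif of the eIF4A genes shows how far the copies differ, and its codons are in capitals below. Coding bases are counted from 1 at the start codon, and all sequences are from GENCODE M21 transcripts on GRCm38. Eif4a1 lies at chr11:69666936-69672423, Eif4a2 at chr16:23107444-23114136 and Eif4a3 at chr11:119288363-119300089. Eif4a-ps4, at chr1:60703932-60705149, is annotated as a processed pseudogene.
Eif4a1: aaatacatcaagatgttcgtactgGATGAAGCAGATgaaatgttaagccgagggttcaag
Eif4a-ps4: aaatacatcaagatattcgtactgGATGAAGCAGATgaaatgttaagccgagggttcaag
Eif4a2: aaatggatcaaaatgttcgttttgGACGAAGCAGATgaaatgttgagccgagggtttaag
Eif4a3: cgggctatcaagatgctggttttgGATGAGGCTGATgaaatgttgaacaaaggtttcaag
Against Eif4a1, the pseudogene differed at 1 of these 60 bases, Eif4a2 at 8 and Eif4a3 at 17. The longest run of identical bases between the Eif4a1 coding sequence and Eif4a-ps4 was 684 bases of 1221, whereas no run of 40 bases or more was shared between Eif4a1 and Eif4a2.

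A second pair bears on the member with the largest difference between genotypes. Eif2s2, which encodes the beta subunit of eIF2, lies at chr2:154871410-154892935 on the minus strand. Its processed pseudogene Gm9892 lies at chr8:52196065-52197056 and matched the Eif2s2 coding sequence at all but 5 of 992 bases. A window around 1 of these differences is shown with the differing base in capitals.
Eif2s2: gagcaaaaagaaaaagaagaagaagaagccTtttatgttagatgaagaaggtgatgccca
Gm9892: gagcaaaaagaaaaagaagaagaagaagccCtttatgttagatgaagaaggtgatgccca
Reads over the whole span of Gm9892 numbered 2, 10, 3 and 4 in Homo libraries 9, 10, 11 and 12. They numbered 2, 2, 0 and 4 in Het libraries 1, 2, 3 and 4. The pseudogene row therefore held few reads in either genotype.

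On total exon reads, 8 initiation factor genes were higher and 3 were lower in Homo libraries. The higher genes were Eif2s1 and Eif2s2 of eIF2, Eif5 and Eif5b of subunit joining, Eif1ax of the scanning complex, and Eif3a, Eif3c and Eif3j2 of eIF3. The lower genes were Eif3f and Eif3i of eIF3 and the eIF4A cofactor Eif4h. A gene was called when the quasi-likelihood F test of edgeR gave a Benjamini-Hochberg adjusted p under 0.05 over all 12257 genes tested. The called share was 22.4% of the 49 tested members, beside 13.1% of all tested genes, of which 6.96% were higher and 6.12% lower in Homo. The median log2 fold change (Homo over Het) was 0.01 over the tested members and 0.04 over all tested genes. In bulk RNA of sorted cells, fewer cells of a type and less RNA per cell cannot be told apart. Libraries of the genotypes did not overlap in CPM for 15 of the 49 members, 9 higher and 6 lower, which is 30.6%, beside 19.6% of all tested genes (10.3% higher, 9.34% lower). DESeq2 called 8 members higher and 5 lower, 24.5% of all 53, beside 6.36% of its 29537 genes (2.99% higher, 3.38% lower). These 29537 are all genes with any exon read, also those that DESeq2 gave no adjusted p. Its share over all genes is therefore not comparable with that of edgeR. The 4 genes without a test were Eif2ak2, Eif4e1b, Eif4ebp1 and Eif4ebp3, with 65, 12, 5 and 3 exon reads summed over Homo libraries and 22, 7, 10 and 2 over Het libraries.

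**Figure D1:**
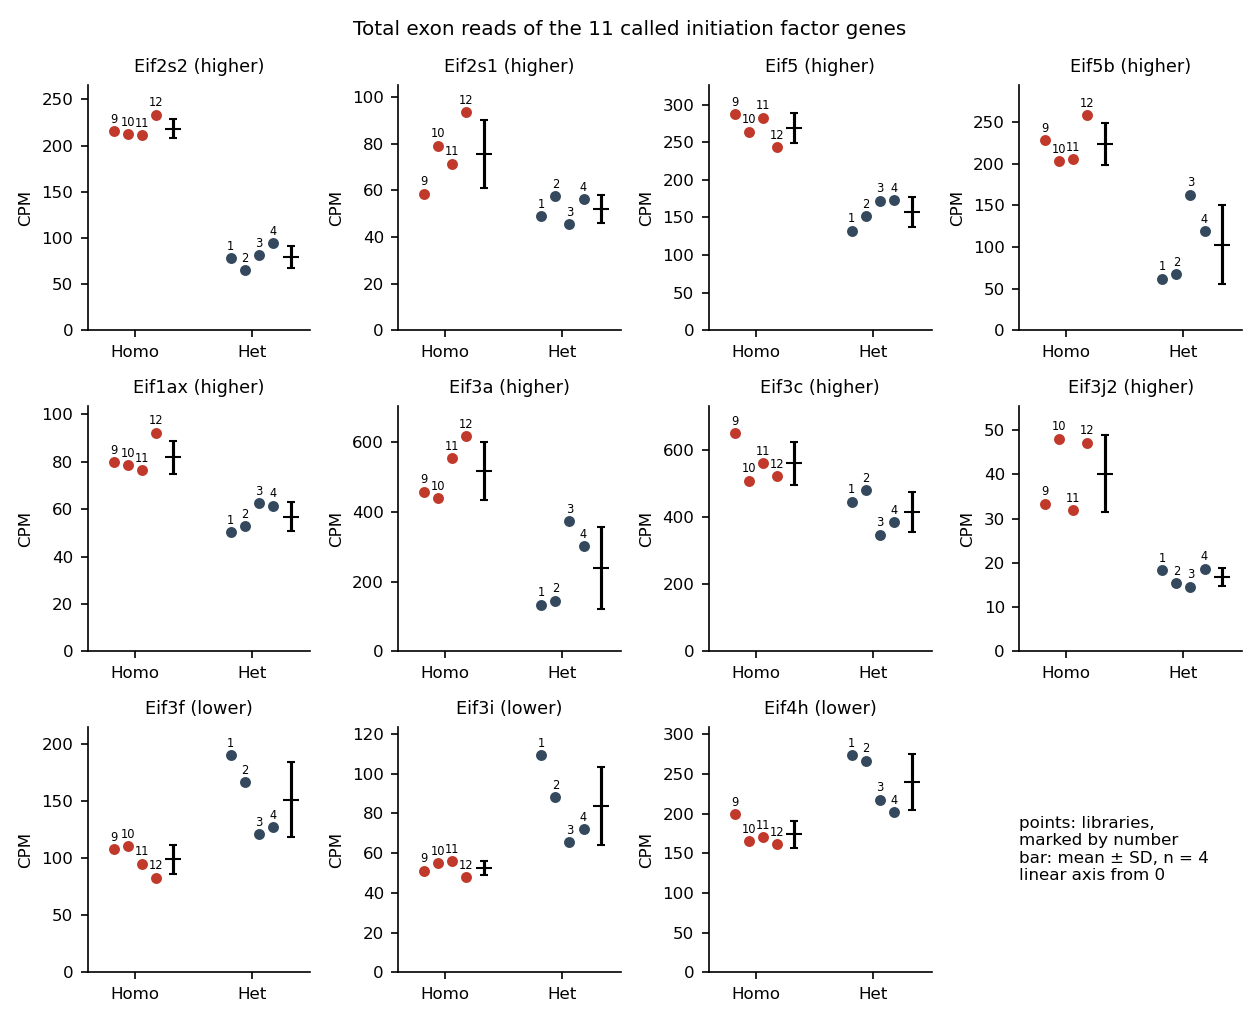
Total exon reads (CPM, linear axis from 0) of the 11 called genes in each library, with Homo libraries left of Het libraries, library numbers beside the points and bars for mean ± SD (n = 4). Homo and Het libraries do not overlap in any of the 11 panels, and for Eif3a and Eif5b Het libraries 1 and 2 lie below Het libraries 3 and 4.

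Libraries also differed in a property that moves with the genotype. For each gene, the log2 level in a library was taken relative to its mean over the 8 libraries. The slope of these relative levels on transcript GC content was −0.26 ± 0.06 log2 units per 10 percentage points in Homo libraries. In Het libraries it was 0.26 ± 0.22 (SD, n = 4 each), without overlap (exact two-sided permutation p = 0.0286, the smallest that 4 against 4 allows). The mirrored genotype means follow from taking levels relative to the mean. Only the difference between libraries is known, not the slope of the level itself. Among Het libraries the slope was 0.44 and 0.46 in libraries 1 and 2 and 0.05 and 0.09 in libraries 3 and 4. Each call on total reads below is therefore given also after a per-library correction of levels for GC content. After it, 1 member was called higher (Eif2s2) and 1 lower (Eif3f), 4.08% of the 49 members beside 1.9% of all genes (1.09% higher, 0.817% lower). On unique reads with the correction Eif2s2 and Eif3c were called higher and Eif3f and Eif4a1 lower, 8.33% of 48 members beside 2.46% of all genes (1.56% higher, 0.893% lower). Genotype and the GC slope cannot be told apart in these 8 libraries.

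Both tested eIF2 subunits rose in Homo libraries. Eif2s2 had 216, 212, 211 and 234 CPM in Homo libraries 9, 10, 11 and 12, against 78.1, 65.5, 81.7 and 94.1 CPM in Het libraries 1, 2, 3 and 4. Its log2 fold change was 1.45 ± 0.13 (SE) on total reads and 1.501 ± 0.183 on unique reads, with adjusted p of 0.000252 and 0.000394 in edgeR. Every Homo library stood above every Het library by more than the spread within either genotype. After the GC correction the log2 fold change was 0.91 ± 0.12 (adjusted p = 0.00247 in edgeR), and the call held in each of the 8 fits that left out 1 library. Over the whole gene, introns included, it was 0.92 ± 0.19, which was not called (adjusted p = 0.108 in edgeR).

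Eif2s1 encodes the alpha subunit, the site at which the eIF2 kinases act. It had 58.6, 79.1, 71.5 and 93.4 CPM in Homo libraries, against 48.9, 57.5, 45.5 and 56.4 CPM in Het libraries. The lowest Homo and the highest Het library were close together, and the log2 fold change of 0.54 ± 0.17 passed narrowly (adjusted p = 0.0497 in edgeR). It was called in 1 of the 8 fits that left out a library, the one without Homo 9, and its GC-corrected value was 0.02 ± 0.18. The 2 subunits together summed to 294 ± 23.2 CPM in Homo libraries and 132 ± 12.5 CPM in Het libraries (SD, n = 4 each). Eif2a and Eif2d encode factors that can deliver transfer RNA without eIF2. Eif2d had 32.3, 29.5, 36.3 and 23.9 CPM in Homo libraries and 37.0, 46.8, 28.5 and 38.7 CPM in Het libraries, which overlapped. Neither Eif2a (0.49 ± 0.23) nor Eif2d (−0.31 ± 0.21) was called in edgeR or DESeq2, and Eif2a had an unadjusted p under 0.05.

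Both genes of subunit joining were called higher. Eif5, whose product makes eIF2 hydrolyse its GTP, had 287, 264, 283 and 243 CPM in Homo libraries and 133, 151, 172 and 173 CPM in Het libraries. Its log2 fold change was 0.77 ± 0.12 (adjusted p = 0.00224 in edgeR) and stayed called without any 1 library. Eif5b, the GTPase that joins the large subunit, had 228, 203, 206 and 258 CPM in Homo libraries, against 62.0, 67.5, 163 and 119 CPM in Het libraries. Het libraries 3 and 4 lay between the other Het libraries and the Homo libraries. The log2 fold change was 1.12 ± 0.24 (adjusted p = 0.0103 in edgeR), and 0.94 to 1.38 when 1 library was left out, all called. Reads of Eif5b and Rev1, which overlap on opposite strands, cannot be separated where strand was not used, and use of strand in counting is not given in the sources used here. After the GC correction Eif5 stood at 0.35 ± 0.11 and Eif5b at 0.74 ± 0.19, neither called (adjusted p = 0.139 and 0.0628 in edgeR).

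Of the 5 scanning genes, Eif1ax was called. It encodes the eIF1A protein from the X chromosome and had 79.99, 78.7, 76.6 and 92.2 CPM in Homo libraries and 50.4, 52.8, 62.4 and 61.6 CPM in Het libraries. The log2 fold change was 0.53 ± 0.14 (adjusted p = 0.0267 in edgeR), and every Homo library stood above every Het library. It lost its call without Het 1, Het 2 or any Homo library, at values of 0.46 to 0.56, and its GC-corrected value was 0.00 ± 0.13. The autosomal Eif1a had 0.71 ± 0.24 and was not called (adjusted p = 0.0618 in edgeR).

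Eif1 and Eif1b encode the factor that guards start codon choice. Eif1 had 185, 156, 156 and 138 CPM in Homo libraries, against 186, 232, 155 and 155 CPM in Het libraries. Eif1b had 110.2, 101, 95.3 and 86.4 CPM in Homo libraries and 94.9, 138, 91.7 and 107 CPM in Het libraries. Their log2 fold changes of −0.20 ± 0.15 and −0.14 ± 0.15 lay within the overlap of the libraries. The 2 paralogs differed in how their reads were assigned: 42.0% of the exon reads of Eif1 were non-unique and 0% of those of Eif1b.

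As counted, the 14 tested eIF3 genes did not move together. They encode subunits of the scaffold between small subunit and messenger RNA. Of them 3 were called higher, 2 lower and 9 not called, beside 6.96% higher and 6.12% lower over all tested genes. The median log2 fold change was −0.04, with a range from −0.67 to 1.255. After the GC correction Eif3f alone of them was called. Eif3a, the largest core subunit, had 459, 440.0, 555 and 616 CPM in Homo libraries, against 134, 145, 374 and 301 CPM in Het libraries. Its log2 fold change was 1.12 ± 0.27 (adjusted p = 0.0160 in edgeR), and Het libraries 1 and 2 were below Het libraries 3 and 4. Leaving out Het 2 or Homo 11 took the value to 0.94 or 1.08 and the adjusted p to 0.0538 or 0.0511 in edgeR. Its GC-corrected value was 0.75 ± 0.21 (adjusted p = 0.0877 in edgeR).

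Eif3c, another core subunit, had 650, 508, 561 and 521 CPM in Homo libraries and 446, 479, 348 and 385 CPM in Het libraries. The highest Het library came close to the lowest Homo library. The log2 fold change was 0.43 ± 0.13 (adjusted p = 0.0470 in edgeR), and it was not called in any of the 8 fits without 1 library, at 0.30 to 0.51. Its GC content of 50.3% was the highest of the called-higher members, and its GC-corrected value of 0.44 ± 0.12 was nearly the same as the uncorrected one (adjusted p = 0.0850 in edgeR).

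Eif3f and Eif3i fell in Homo libraries. Eif3f, a subunit with an MPN domain, had 108, 111, 94.9 and 82.8 CPM in Homo libraries, against 190.1, 166, 121 and 127 CPM in Het libraries. Eif3i, a small propeller-shaped subunit, had 51.2, 54.9, 56.1 and 47.9 CPM in Homo libraries and 109, 88.2, 65.5 and 71.9 CPM in Het libraries. In both genes Het libraries 1 and 2 were the highest of all 8. Log2 fold changes were −0.61 ± 0.16 for Eif3f and −0.67 ± 0.17 for Eif3i (adjusted p = 0.0249 and 0.0206 in edgeR). Eif3f lost its call without Het 1, Het 2, Homo 11 or Homo 12 (−0.59 to −0.49) and Eif3i without Het 1, Het 2, Homo 10 or Homo 12 (−0.70 to −0.53). After the GC correction Eif3f had −0.63 ± 0.15 (adjusted p = 0.0483 in edgeR; called in 1 of the 8 corrected fits that left out a library, the one without Het 3) and Eif3i −0.57 ± 0.16 (adjusted p = 0.0813 in edgeR).

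Eif3h had the highest level per length among the members in the mean of the 8 libraries, though in neither genotype alone, with 45.4 ± 14.6 RPKM in Homo libraries and 54.1 ± 18.9 RPKM in Het libraries (SD, n = 4 each). Its CPM values of 244, 197, 184 and 216 in Homo libraries and 196, 309, 195 and 199 in Het libraries overlapped, and Het 2 stood apart from the other Het libraries. Eif3b, Eif3d, Eif3e, Eif3g, Eif3k, Eif3l and Eif3m had log2 fold changes between −0.33 and 0.46, none of them called with all 8 libraries, while Eif3e was called higher without Homo 11. As a whole the eIF3 genes summed to 2348 ± 131 CPM in Homo libraries and 2038 ± 156 CPM in Het libraries.

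Eif3j1 and Eif3j2 encode the loosely bound j subunit and could hardly be told apart by reads of this length. Of the 36-base windows of the Eif3j2 transcript, 93.1% also occurred in Eif3j1, and their coding sequences shared an identical run of 784 bases. Eif3j2 had 33.3, 48.0, 31.9 and 47.1 CPM in Homo libraries and 18.3, 15.4, 14.6 and 18.7 CPM in Het libraries, of which 3 reads in all were unique. Its call (1.255 ± 0.220, adjusted p = 0.00343 in edgeR) thus rests on reads that fit more than 1 place, and unique reads were too few for a test. After the GC correction the value was 0.66 ± 0.24 and was not called (adjusted p = 0.174 in edgeR), nor was it in any of the 8 corrected fits that left out a library. Eif3j1 had 31.6, 34.3, 42.2 and 20.0 CPM in Homo libraries and 22.4, 17.04, 32.0 and 19.4 CPM in Het libraries. These overlapped, with a log2 fold change of 0.50 ± 0.27 on total reads and −0.65 ± 0.62 on unique reads, neither called, and 80.9% of its reads were non-unique. The rows therefore give the j subunit genes jointly rather than 1 gene each. In addition, 54.0% of the exon bases of Eif3j1 lie inside the span of another gene, mainly Spg11 on the opposite strand. Spg11 had 199, 151, 153 and 197 exon reads in Homo libraries and 214, 149, 160 and 178 in Het libraries. Where strand was not used, its reads cannot be separated from those of Eif3j1.

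Of the eIF4A helicases, Eif4a1 and Eif4a3 were called lower on unique reads and not on total reads. Eif4a1, the main cytoplasmic helicase, had 724, 609, 636 and 626 CPM of total exon reads in Homo libraries, against 893, 990, 792 and 735 CPM in Het libraries. Of these, 118, 113, 119 and 113 CPM in Homo libraries and 169, 195, 149 and 139 CPM in Het libraries were unique. The lowest Het library stood just above the highest Homo library on total reads and further above it on unique reads. The log2 fold change was −0.39 ± 0.13 on total reads (adjusted p = 0.0517 in edgeR) and −0.52 ± 0.13 on unique reads (adjusted p = 0.0174 in edgeR), so the call depended on the column. On total reads it was called without Het 3, Het 4 or Homo 9 (−0.50 to −0.47) and not without any other library. With the GC correction the unique reads gave −0.58 and stayed called (adjusted p = 0.0241 in edgeR).

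Eif4a3, which encodes the helicase of the exon junction complex, had 79.99, 64.2, 81.7 and 70.7 CPM in Homo libraries, against 88.9, 112, 93.6 and 98.2 CPM in Het libraries. It gave −0.40 ± 0.14 on total reads (adjusted p = 0.0674 in edgeR) and −0.50 ± 0.14 on unique reads (adjusted p = 0.0334 in edgeR). The corrected unique reads gave −0.31, which was not called (adjusted p = 0.272 in edgeR). Eif4a2, a close paralog of Eif4a1 that is common in neurons, had 575, 587, 734 and 604 CPM in Homo libraries and 580, 751, 612 and 691 CPM in Het libraries. Its libraries overlapped, with −0.08 ± 0.13 on total reads and 0.10 ± 0.12 on unique reads. Non-unique reads of Eif4a2 ranged from 32.4% in Homo 9 to 55.0% in Homo 11, and from 45.5% to 57.3% in Het libraries. The 3 helicase genes summed to 1348 ± 84.8 CPM in Homo libraries and 1609 ± 164 CPM in Het libraries on total reads, and to 521 ± 40.4 and 565 ± 44.4 CPM on unique reads. On total reads none was called, although 2 had an unadjusted p under 0.05 and DESeq2 called 2, Eif4a1 and Eif4a3.

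**Figure D2:**
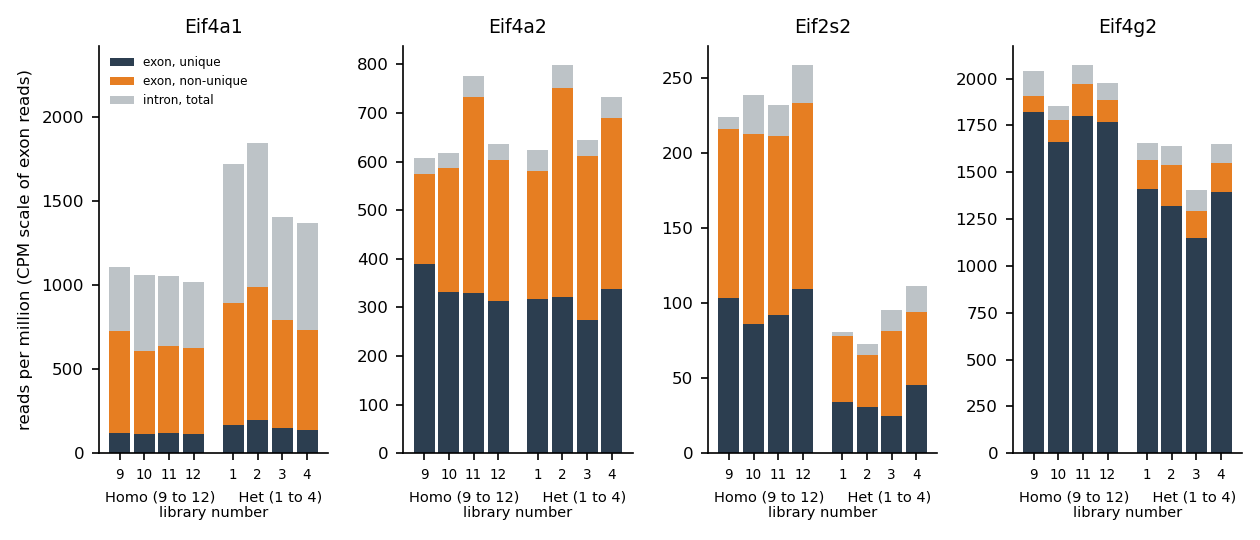
CPM in each library for Eif4a1, Eif4a2, Eif2s2 and Eif4g2, stacked as unique exon, non-unique exon and total intron reads, with Homo libraries left of Het libraries. Non-unique reads make up most of the exon reads of Eif4a1 in all 8 libraries and a small part of those of Eif4g2, and Eif4a1 intron reads are lower in every Homo library than in every Het library.

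Of the eIF4A cofactors, Eif4h fell and Eif4b was not called. Eif4h had 199, 166, 170.1 and 162 CPM in Homo libraries and 274, 266, 217 and 201 CPM in Het libraries. The highest Homo library, 9, nearly reached the lowest Het library, 4. Its log2 fold change was −0.46 ± 0.13 (adjusted p = 0.0361 in edgeR). The call was lost without Het 1, Het 2, Homo 10, Homo 11 or Homo 12 (−0.45 to −0.40) and after the GC correction (−0.25 ± 0.12). Eif4b had 358, 323, 324 and 316 CPM in Homo libraries and 364, 327, 301 and 276 CPM in Het libraries, which overlapped.

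The scaffold and cap-binding genes were not called on total reads. Eif4g2, which encodes a scaffold that lacks the eIF4E binding site, was the member with most reads. It had 1905, 1777, 1969 and 1885 CPM in Homo libraries, against 1565, 1539, 1294 and 1550.2 CPM in Het libraries. The genotypes did not overlap, the log2 fold change was 0.34 ± 0.11 (adjusted p = 0.0565 in edgeR), and unique reads gave 0.39 ± 0.11, which was called (adjusted p = 0.0261 in edgeR). With the GC correction the values were −0.10 ± 0.13 and −0.01. DESeq2 called Eif4g2 on total reads. Eif4g1, the main scaffold, had 757, 628, 690.2 and 581 CPM in Homo libraries and 794, 675, 561 and 628 CPM in Het libraries. Eif4g3 had 374, 311, 346 and 336 CPM in Homo libraries and 285, 293, 376 and 291 CPM in Het libraries, where Het 3 exceeded every other Het library. Their log2 fold changes were 0.00 ± 0.13 and 0.13 ± 0.13.

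Among cap-binding genes Eif4e had 0.40 ± 0.16 (adjusted p = 0.104 in edgeR), Eif4e2 −0.03 ± 0.13 and Eif4e3 0.08 ± 0.25. Eif4e2, the most abundant of them per length, had 167, 126, 136 and 131 CPM in Homo libraries and 161, 151, 128 and 129 CPM in Het libraries. The eIF4E-binding repressor Eif4ebp2 had 156, 115, 130.5 and 92.6 CPM in Homo libraries, against 171, 208, 118 and 146 CPM in Het libraries, with a log2 fold change of −0.37 ± 0.19, and was called lower without Het 3. Eif4enif1, which carries eIF4E into the nucleus, had 0.07 ± 0.13. Libraries of the genotypes overlapped for all of these genes. None of the 3 cap-binding and 2 repressor genes was called in edgeR or DESeq2, beside 13.1% of all tested genes called in edgeR. Of these genes 1, Eif4e, had an unadjusted p under 0.05.

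No eIF2B subunit and no eIF2 kinase was called in edgeR or DESeq2, beside 13.1% of all tested genes called in edgeR. Of these 8 tested genes only Eif2b2 had an unadjusted p under 0.05. Eif2b1 to Eif2b5 had log2 fold changes from −0.51 to 0.09, and the most abundant per length, Eif2b5, had 114, 91.6, 91.3 and 108 CPM in Homo libraries and 124, 116, 102 and 95.5 CPM in Het libraries. The kinases Eif2ak1, Eif2ak3 and Eif2ak4, sensors of haem, misfolded protein and amino acid supply, lay between 0.06 and 0.18. Eif2ak1 had 77.9, 67.0, 74.0 and 58.9 CPM in Homo libraries and 87.4, 70.8, 50.9 and 56.7 CPM in Het libraries. The spread between libraries exceeded the difference between genotypes for each kinase. On the fixed list of integrated stress response genes, 0 of 9 tested genes were called in edgeR or DESeq2, and none had an unadjusted p under 0.05. Over all tested genes, 13.1% were called in edgeR and 3597 of 12257 had an unadjusted p under 0.05. Whether this list differs from all genes was not tested. Atf4, the translationally controlled factor of that response, averaged 142 ± 8.14 CPM in Homo libraries and 158 ± 34.6 CPM in Het libraries.

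Eif5a and Eif6 were not called either. Eif5a, the hypusine-bearing factor, had 199.6, 179, 178 and 180.2 CPM in Homo libraries and 233, 293, 213 and 192 CPM in Het libraries, with −0.34 ± 0.14 (adjusted p = 0.117 in edgeR). Its paralog Eif5a2 had 8.42, 6.86, 10.6 and 12.95 CPM in Homo libraries and 6.35, 12.7, 8.09 and 6.23 CPM in Het libraries. Eif6, which keeps free large subunits apart from small ones, had 18.2, 23.4, 24.9 and 20.4 CPM in Homo libraries, against 46.3, 32.7, 25.8 and 26.6 CPM in Het libraries. Its Homo libraries all lay below its Het libraries, with −0.60 ± 0.24 (adjusted p = 0.107 in edgeR). Each of Eif5a and Eif6 had an unadjusted p under 0.05, and DESeq2 called neither, while it gave Eif5a2 no adjusted p.

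**Figure D3:**
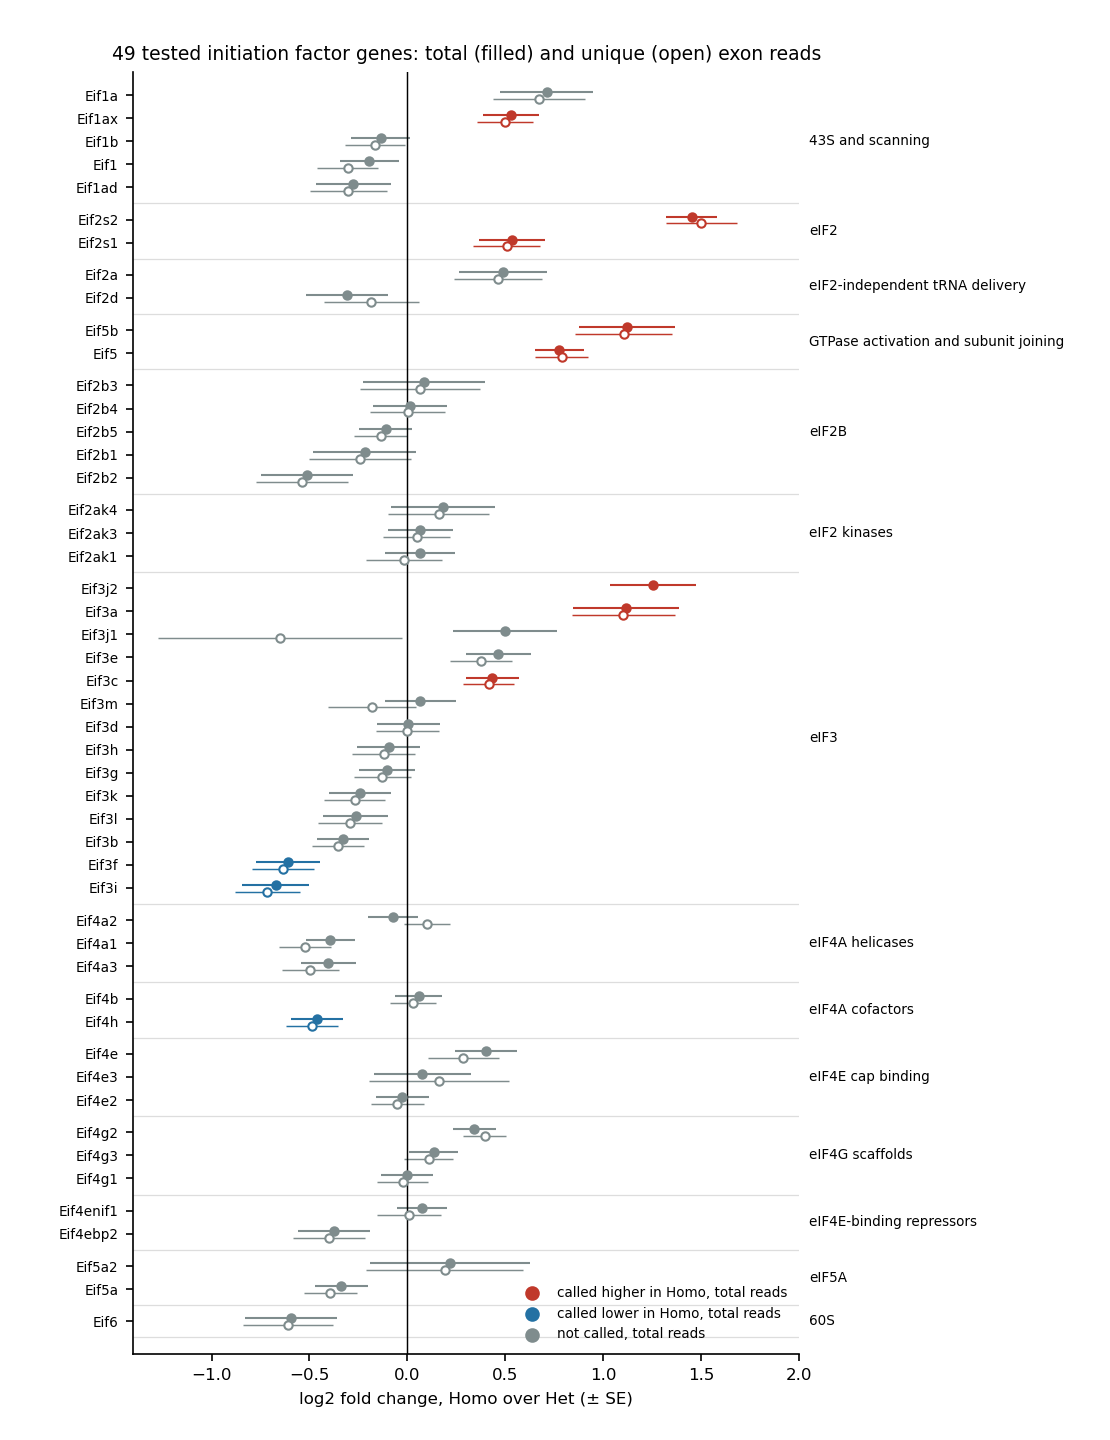
Log2 fold change, Homo over Het, with SE, for the 49 tested genes by complex, from total exon reads (filled) and unique exon reads (open), coloured by the call on total reads. Total and unique values lie close together for most genes, while Eif3j1 stands at 0.50 on total and −0.65 on unique reads and Eif3j2 has no unique value.

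Unique exon reads gave 12 calls among 48 tested members, 7 higher and 5 lower, 25.0% beside 14.2% of all genes tested on them (6.7% higher, 7.52% lower). Of the 11 calls on total reads 9 were also made on unique reads, and these were 9 of the 12 unique calls. Eif2s1 and Eif3j2 were called on total reads only. Eif4g2, Eif4a1 and Eif4a3 were called on unique reads only. Whether the 2 columns gave different genotype effects was tested directly, as a change in the ratio of non-unique to unique reads. Of the 24 members with at least 20 reads in each class, 1 was called, beside 0.903% of 3542 genes (0.226% with a higher and 0.678% with a lower ratio). This was Eif4g2, of whose exon reads 4.33%, 6.59%, 8.49% and 6.25% were non-unique in Homo libraries, against 9.71%, 14.2%, 11.2% and 10.1% in Het libraries. The ratio changed by −0.91 ± 0.20 on the log2 scale (adjusted p = 0.0424 in edgeR), and 7 of the 8 fits without 1 library did not call it, the exception being the fit without Homo 11. Neither Eif4a1 (0.12 ± 0.13) nor Eif4a3 (0.58 ± 0.35) was called in that test, so their calls on unique reads are no evidence that the 2 columns differ in genotype effect.

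Non-unique reads were spread unevenly over the members. In 25 of the 49 tested members they were under 1% of exon reads, and in 11 they were at least 20%, which is 22.4% of members beside 20.6% of all tested genes. Eif4a1 alone supplied 41.5% of the non-unique reads of the members and Eif4a2 another 21.4%. Over all members, 13.5%, 15.3%, 16.03% and 14.9% of exon reads were non-unique in Homo libraries, against 16.4%, 19.1%, 17.8% and 17.2% in Het libraries, without overlap. Without Eif4a1 the shares were 10.0 ± 1.45% in Homo libraries and 10.8 ± 1.12% in Het libraries (SD, n = 4 each), which overlapped. Over all genes the share was 15.5 ± 0.58% in Homo libraries and 14.7 ± 0.50% in Het libraries.

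Non-unique reads went with 2 kinds of shared position. One was sequence that recurs elsewhere in the genome: across the 49 members the share of 36-base transcript windows found in a gene elsewhere and the non-unique share had a Pearson r of 0.76 and a Spearman rho of 0.60, over points that share the same 8 libraries. Eif4a1 shared 25.2% of its windows with Eif4a-ps4, Eif3m 23.1% with the processed pseudogene Gm7658, and Eif4e 6.93% with Gm7327. The other was overlap with a second gene at the same locus. Eif2s2, Eif3m, Eif4e3 and Eif4enif1 are the tested members that lie wholly inside the span of another gene, and 55.7%, 36.7%, 44.6% and 42.5% of their exon reads were non-unique. Eif4enif1 had only 1.41% of its windows, and Eif4e3 0.856%, in genes elsewhere. Those 4 genes had 2590 intron reads over the 8 libraries and 0 unique ones, whereas each of the other 44 tested members with intron reads had unique ones. A read counted as non-unique in these tables is thus not always a read that fits a second place in the genome. The gene that spans Eif2s2 is the agouti gene a, on the opposite strand. It had 0, 2, 0 and 0 exon reads in Homo libraries and 1, 0, 1 and 0 in Het libraries. Over its whole span, introns included, it had 86, 341, 303 and 237 reads in Homo libraries and 42, 49, 78 and 139 in Het libraries. Where strand was not used, its reads cannot be separated from those of Eif2s2.

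**Figure D4:**
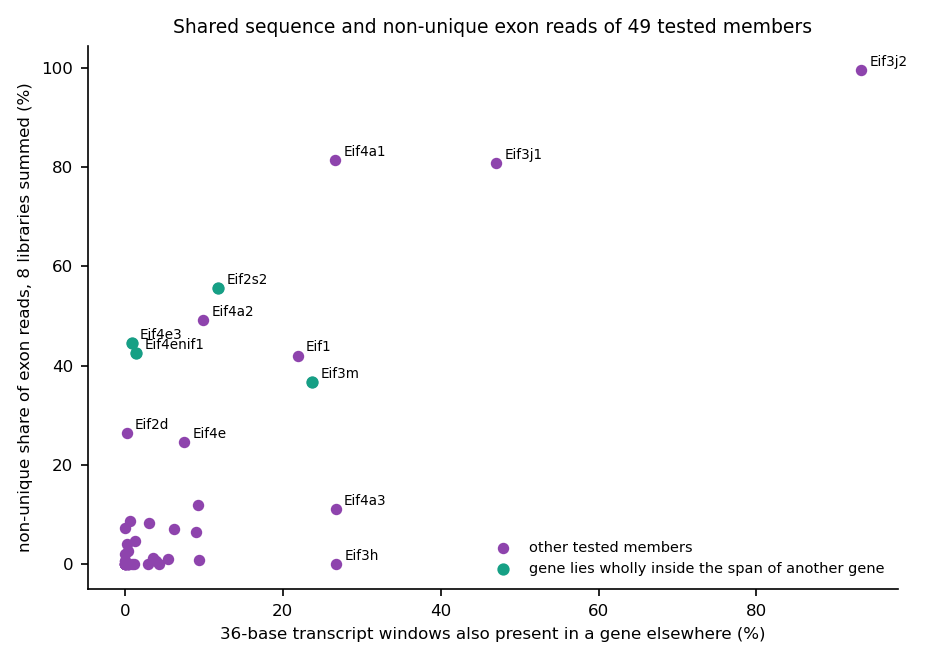
Share of 36-base transcript windows also present in a gene elsewhere (x axis, %) against the non-unique share of exon reads summed over 8 libraries (y axis, %), 1 point per tested gene, with the 4 genes that lie inside another gene in green. Eif3j2 is highest on both axes, Eif4enif1 and Eif4e3 have over 40% non-unique reads with under 2% shared windows, and Eif3h has 26.8% shared windows and 0% non-unique reads.

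Intron reads outnumbered exon reads in every library. The ratio of exon to intron reads was called changed in 0 of 48 members with at least 20 reads in each class (2 at an unadjusted p under 0.05 in edgeR), beside 0.129% of 11586 genes (0.069% with a higher and 0.0604% with a lower ratio). The median log2 change of that ratio, Homo over Het, was −0.32 over the members (10 positive, 38 negative) and −0.47 over all genes. With separate TMM library sizes for exon and intron reads the members' median turned to 0.12 (30 positive, 18 negative, 10 at an unadjusted p under 0.05), beside −0.01 over all genes. Eif4a1 intron reads numbered 1094, 1113, 1131 and 997 in Homo libraries, against 2203, 2562, 1583 and 1830 in Het libraries. Of these, 109, 93, 104 and 74 were unique in Homo libraries and 277, 207, 135 and 167 in Het libraries. The loci of Eif2ak3, Eif3a, Eif4a1, Eif4a2, Eif4g1, Eif4g2 and Eif5 hold small nucleolar RNA genes. The rows of those RNAs were listed at 0 reads in every library. When introns were counted with exons, no member was called in either direction in edgeR (18 at an unadjusted p under 0.05), beside 0.0307% of 19551 genes, and the members' median log2 fold change was −0.41 beside 0.09 over all genes.

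The difference between genotypes followed the base composition of the members. Over the 49 tested members GC content and log2 fold change had a Pearson r of −0.72 and a Spearman rho of −0.71, beside −0.53 and −0.60 over 12238 genes, all from the same 8 libraries. Median GC content was 42.5% in the members called higher, 51.8% in those called lower and 50.8% in the other tested members. The 2448 genes with the lowest GC content held 15 members, of which 7 were called higher and 0 lower, and 513 of all these genes were called higher and 6 lower. The correction takes out the trend with GC content over all tested genes by construction. After it the r over the members was −0.09 and the rho 0.03, which is therefore no separate result. Eif3e had 0.46 ± 0.17 as counted and −0.27 ± 0.21 corrected, and Eif4a2 −0.08 ± 0.13 and −0.61. Neither gene was called in either fit, while corrected Eif4a2 was called lower without Het 3.

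**Figure D5:**
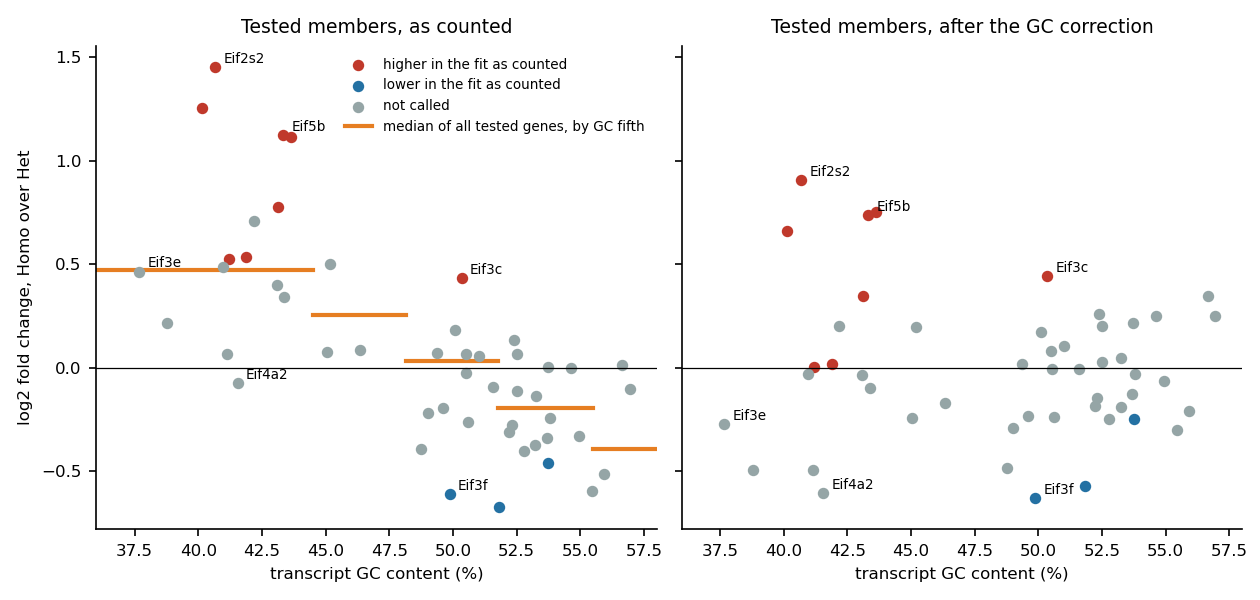
Transcript GC content (x axis, %) against log2 fold change, Homo over Het (y axis), for 49 tested genes as counted (left panel) and after the GC correction (right panel), with the median of all tested genes in each of 5 GC classes as orange lines on the left. Values fall with GC content on the left. On the right the correction removes that slope by construction, and Eif2s2 is the highest at 0.91 and Eif3f the lowest at −0.63.

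Coding sequences of called genes are shown next. The 60 coding bases with the lowest GC content are given for 3 of the 8 genes called higher, in which G and C are in capitals.
Eif5b: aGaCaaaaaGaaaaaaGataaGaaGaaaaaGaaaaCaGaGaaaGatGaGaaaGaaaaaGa
Eif3a: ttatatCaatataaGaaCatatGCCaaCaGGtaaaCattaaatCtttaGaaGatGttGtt
Eif5: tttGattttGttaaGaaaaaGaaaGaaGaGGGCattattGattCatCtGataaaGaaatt
The same window is given for the 3 genes called lower, again with G and C in capitals.
Eif3f: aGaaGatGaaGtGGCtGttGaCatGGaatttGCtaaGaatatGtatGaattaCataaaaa
Eif3i: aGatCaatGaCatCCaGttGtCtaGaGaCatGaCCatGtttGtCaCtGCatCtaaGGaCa
Eif4h: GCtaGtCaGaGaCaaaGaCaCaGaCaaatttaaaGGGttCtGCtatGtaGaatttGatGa
These windows held 25.0% G and C in each of Eif5b, Eif3a and Eif5, and 30.0%, 41.7% and 36.7% in Eif3f, Eif3i and Eif4h. Longer coding sequences offer more windows to choose from. Coding lengths were 3651, 4035 and 1290 bases in Eif5b, Eif3a and Eif5, and 1086, 978 and 747 in Eif3f, Eif3i and Eif4h. The 3 genes called higher were picked as examples, so the windows illustrate and do not compare the groups. Over the whole coding sequence the values were 43.2%, 46.5% and 41.9% in Eif5b, Eif3a and Eif5, and 57.5%, 53.8% and 55.0% in the genes called lower. The other genes called higher had 39.8% (Eif2s2), 40.7% (Eif1ax), 42.1% (Eif2s1), 44.4% (Eif3j2) and 50.5% (Eif3c). Eif5b lies at chr1:37998010-38055579, Eif3a at chr19:60761116-60790693 and Eif5 at chr12:111538016-111546752. Eif3f lies at chr7:108934417-108942951, Eif3i at chr4:129591960-129600648 and Eif4h at chr5:134619721-134639490.

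Genes that act beside the initiation factors were followed from fixed lists. Of 19 poly(A)-binding genes and regulators of cap binding, 4 were called higher and 1 lower, beside 6.96% higher and 6.12% lower over all tested genes. Pabpc1, the main cytoplasmic poly(A)-binding protein, averaged 311 ± 31.6 CPM in Homo libraries and 191 ± 14.8 CPM in Het libraries (0.70 ± 0.12, adjusted p = 0.00327 in edgeR). Its partner Paip2, the eIF4A inhibitor Pdcd4 and the helicase Ddx3x were also higher, at 0.54 ± 0.11, 0.57 ± 0.14 and 0.85 ± 0.15. Tsc2, an upstream brake on mTOR, was lower at −0.58 ± 0.16. Of 4 recycling genes Abce1 and Denr were called higher, of 4 termination genes Etf1 and Gspt2 were called higher, and of 9 elongation genes Eef2 was called lower. None of these 10 calls was made after the GC correction in edgeR.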

How the data were processed

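Total RNA of sorted cells was sequenced as paired 36-base reads. Read counts per gene over exons, introns and whole genes, in total and as unique reads, were deposited by the authors, as were TPM, RPKM and the exon length. Per the submitters' processing notes the builds are GRCm38 and mm10. Mapper, counter and strand use: not given in the sources used here. RPKM deposited by the authors divides by a read total that differs between libraries and is not the exon total, so it was used only to order genes. TPM was not used.

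Libraries were grouped by genotype labels. Total exon counts were tested in edgeR 4.0.16 (R 4.3.3) with filterByExpr, TMM and the quasi-likelihood F test, with Benjamini-Hochberg adjustment over all genes. The SE is the size of the log2 fold change over the square root of F, and CPM use TMM-scaled library sizes. Ratios of read classes were tested as an interaction in the same tool, with library as a term and at least 20 reads per class. The GC correction fitted a loess curve (span 0.3) of log2 CPM, relative to each gene's mean, on GENCODE M21 transcript GC in each library. Non-unique reads are total minus unique reads. The tests were checked on simulated data, which held no trend with GC content. Alternatives included DESeq2 1.42.0.

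The members, complexes and lists were chosen with earlier results of these data known. Per-library values are given for called members, for the member of each complex with the highest mean RPKM, for relatives fixed by name, for members called in a ratio test and for the 3 with the largest non-unique share. Genes lying inside another gene were singled out after their values were seen. Reads are not independent molecules.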

Additional observations from a re-analysis of the deposited data

Results flagged for a closer look

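In 30 members, 94 groups of 4 libraries were looked through for 1 library that stood far from the other 3, and 11 were found. Chance flags about 1 in 20 groups. Eif3h had 309 CPM in Het 2, above the other Het libraries. Eif4g2 had 1294 CPM in Het 3, below the other Het libraries, and Eif4g3 had 376 CPM in Het 3, above them. Eif5a had 199.6 CPM in Homo 9, above the other Homo libraries. The non-unique share of exon reads stood apart for Eif5a in Homo 9 (14.2%), Eif2s1 in Homo 10 (10.2%), Eif3j2 in Homo 11 (98.9%) and Eif6 in Homo 11 (2.94%). It also stood apart for Eif5b in Het 1 (9.04%), Eif4a1 in Het 2 (80.2%) and Eif4b in Het 3 (1.54%).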

How the results depend on the processing

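The 8 higher and 3 lower calls became 0 and 0 on whole-gene reads, 5 and 8 without a filter on low counts, 5 and 5 with a 1 CPM filter, 7 and 5 on unique exon reads, and 8 and 5 in DESeq2. They became 1 and 1 with the GC correction and 2 and 2 when it was applied to unique reads. Leaving out 1 library gave 4 to 6 higher calls (4 without Het 2) and 0 to 5 lower calls (0 without Het 1, Het 2 or Homo 12, 5 without Het 3), and with the GC correction 1 to 3 higher and 0 to 4 lower calls (3 and 4 without Het 3). GC correction of unique reads, and without 1 library, was chosen after seeing the data. The ratio of non-unique to unique reads was called for 2 members with a minimum of 50 reads, and for 0 to 1 without 1 library. The exon to intron ratio was called for 1 member (Eif3a) with separate TMM library sizes, with medians of 0.12 over the members and −0.01 over all genes. Among called members, values that changed sign were −0.033 for Eif2s1 and −0.13 for Eif3c on whole-gene reads. With the GC correction, Eif1ax had −0.057 without Het 3, −0.042 without Het 4, −0.028 without Homo 9 and −0.024 without Homo 12, and Eif2s1 had −0.12 without Het 3, −0.029 without Het 4, −0.016 without Homo 10 and −0.067 without Homo 12. The cause was not tested. No paired analysis was possible because no library number is shared between the genotypes. Depth limits the 4 untested members. Members that were not called also changed sign, among them Eif1b (0.05 with the GC correction), Eif4g2 (−0.21) and Eif4e (−0.11) on whole-gene reads.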
